A study of Mus musculus with 9 samples.

Results

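Shank1, Shank2, Shank3, Dlg2, Dlg3, Dlg4, Tanc1, Tanc2 and Homer1 encode scaffold proteins of the postsynaptic density. These 9 genes, chosen by name out of 37620 identifiers in the counts, were all detected and all passed the filter on low counts. Their ribosome-associated RNA was measured in 5 samples from mice that received non-target shRNA (shNT) and 4 samples from mice that received Ablim3 shRNA (shRNA). All mice carried PV-Cre and HA-tagged Rpl22, so that Cre puts the HA tag on the ribosomes of the cells in which the parvalbumin driver is active, chiefly parvalbumin-expressing inhibitory neurons (PV INs). In both groups lentivirus was injected into the dentate gyrus (DG) of 2-month-old mice, and CA3/CA2 tissue of 6 male and female mice was pooled for each sample 2 weeks later. Levels are CPM, counts scaled to the library's size with TMM factors, which adjust libraries to one another. They include RNA from untagged cells where the precipitation brought it down. In such bulk samples fewer cells of a type and less RNA per cell cannot be told apart.

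Excitatory synapses, including those that mossy fibers make onto PV INs, anchor their glutamate receptors to a layered protein scaffold. Proteins of the Dlg family (PSD-95 is the product of Dlg4, PSD-93 of Dlg2 and SAP102 of Dlg3) lie near the membrane and bind receptor tails through PDZ domains. Shank proteins form the deeper layer and are joined to the Dlg proteins by SAPAP proteins, the products of the Dlgap genes, and Homer proteins join Shank to metabotropic glutamate receptors. Tanc1 and Tanc2 encode large repeat proteins that bind PSD-95. Homer1 also gives a short activity-induced form, which counts per gene do not separate from the long forms.

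The sequences before a start site of 4 of these genes are shown because Tanc1 and Tanc2 were the scaffold genes called higher in the shRNA samples, and because Dlg2 and Homer1 varied together most closely across samples. Promoters came from RefSeq (build GRCm38.p6), in which 7 of the 9 genes were matched, with 14 start sites in all, and Shank1 and Shank2 were not matched. Each line holds the 250 bases before a start site, found at a single place on its chromosome in mm9, the build of the counts, and outside annotated exons of that build. The start site used was the first listed for Tanc1 and Homer1, the only one for Tanc2 and the middle one of 3 for Dlg2. That Dlg2 site is internal, because the annotated gene runs from 97650473 to 99595513 on the + strand. Its window therefore does not lie before the 5' end of the gene, unlike those of Tanc1, Tanc2 and Homer1. Capitals mark TGACG or its reverse complement CGTCA, the half-site of the cAMP response element (CRE) that CREB binds. 
Tanc1 (chr2:59449849-59450098, + strand): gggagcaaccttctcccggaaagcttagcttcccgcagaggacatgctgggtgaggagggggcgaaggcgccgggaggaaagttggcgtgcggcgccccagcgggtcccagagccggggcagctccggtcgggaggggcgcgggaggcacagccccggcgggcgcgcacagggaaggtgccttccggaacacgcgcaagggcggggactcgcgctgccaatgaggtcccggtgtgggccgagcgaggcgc
Tanc2 (chr11:105451050-105451299, + strand): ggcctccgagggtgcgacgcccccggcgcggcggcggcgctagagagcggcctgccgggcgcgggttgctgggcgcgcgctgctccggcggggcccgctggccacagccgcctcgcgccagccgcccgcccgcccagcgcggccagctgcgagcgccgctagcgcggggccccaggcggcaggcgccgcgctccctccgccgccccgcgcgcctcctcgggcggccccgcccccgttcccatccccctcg
Dlg2 (chr7:99210654-99210903, + strand): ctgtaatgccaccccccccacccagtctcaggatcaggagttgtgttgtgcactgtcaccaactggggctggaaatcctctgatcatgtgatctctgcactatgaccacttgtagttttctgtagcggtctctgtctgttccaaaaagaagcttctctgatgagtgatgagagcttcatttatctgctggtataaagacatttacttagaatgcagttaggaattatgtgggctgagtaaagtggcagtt
Homer1 (chr13:94073462-94073711, + strand): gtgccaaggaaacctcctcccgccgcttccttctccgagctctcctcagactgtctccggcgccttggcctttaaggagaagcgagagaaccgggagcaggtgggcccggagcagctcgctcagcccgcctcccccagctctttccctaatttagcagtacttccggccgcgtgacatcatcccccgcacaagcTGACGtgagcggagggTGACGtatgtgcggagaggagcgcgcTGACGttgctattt

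The Homer1 sequence held 3 half-sites, all on the + strand, whereas the Tanc1, Tanc2 and Dlg2 sequences held 0. Of 32851 RefSeq promoters of the same length, 17.8% held at least 1 half-site and 0.688% held at least 3. Among the other start sites, 1 of Dlg4 and 1 of Dlg3 held a single half-site. No promoter of the scaffold genes held the full CRE, TGACGTCA, in which half-sites on both strands overlap and which 1.55% of all promoters held. GC content was 85.6% before the Tanc2 start and 73.2% before the Tanc1 start, against 62.4% for Homer1 and 45.6% before the internal Dlg2 start. A match of letters is a description of these windows and not of binding.

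Of the 9 scaffold genes, 2 were upregulated in the shRNA samples, Tanc1 and Tanc2, and 0 were downregulated (edgeR quasi-likelihood, FDR under 0.05 by Benjamini-Hochberg over 15069 genes, and at least 1.5-fold). Over all genes tested, 1.74% were upregulated and 0.0133% downregulated by the same rule. All 9 scaffold genes have at least 4 kb of exons. Of the 6613 genes tested with that length, 3.31% were upregulated and the median log2 fold change was 0.32. At an unadjusted p under 0.05, 5 of the 9 were higher (Shank2, Dlg2, Tanc1, Tanc2 and Homer1), against 20.7% of all genes tested. All 9 had a log2 fold change above 0, as did 57.9% of all genes tested. Their median log2 fold change was 0.75, with a range of 0.24 to 1.38, and the median of all genes tested was 0.11. Exact permutation tests of the log2 levels gave an unadjusted p under 0.05, with shRNA higher, for 3 of the 9 genes (Tanc1, Tanc2 and Dlg2) and for 16.9% of all genes tested, with 15.1% lower. Adjusted over all genes tested, no exact permutation p passed for any gene, the lowest being 0.112, and the smallest unadjusted p that 5 against 4 samples allow is 0.00794.

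**Figure D1:**
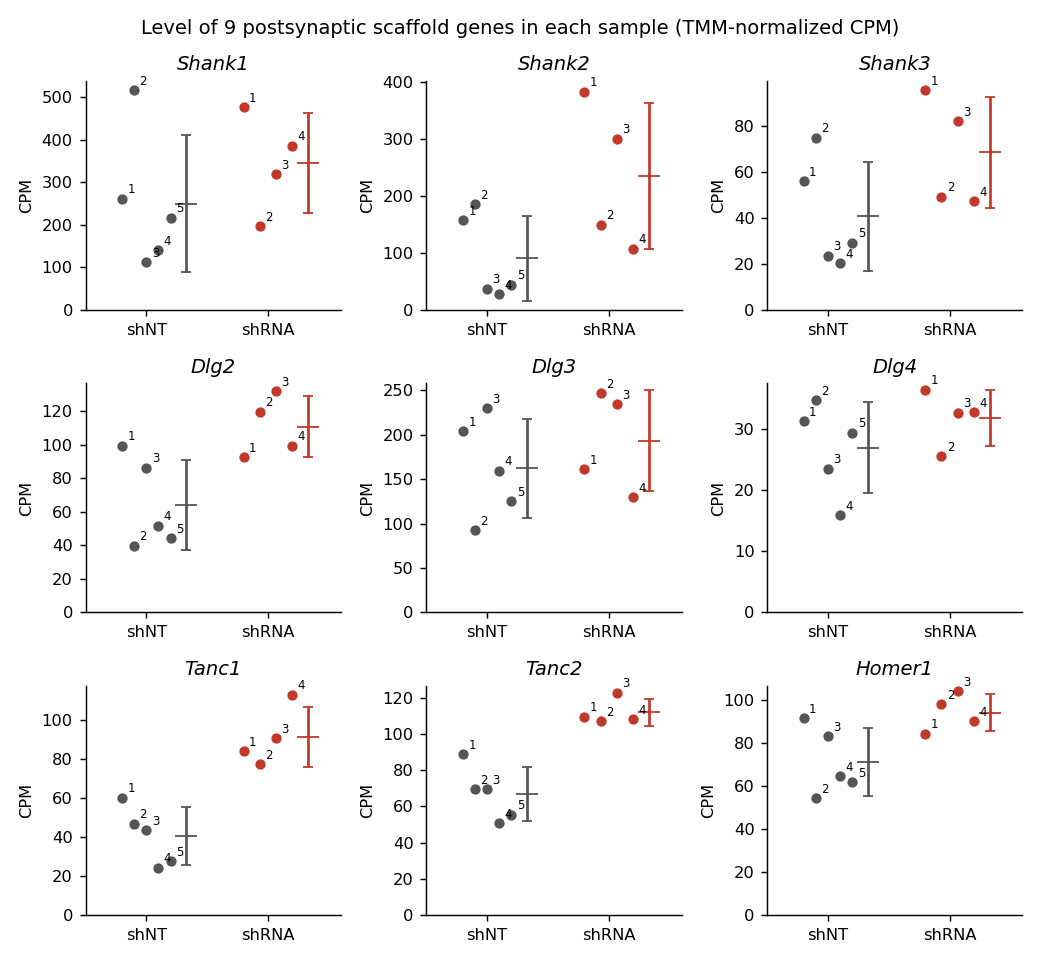
Level of each scaffold gene in CPM (vertical axes, from 0) in the 5 shNT and 4 shRNA samples. Points are samples with their replicate number, and bars are mean ± SD. In Tanc1 and Tanc2 every shRNA sample lies above every shNT sample, and in Shank2 and Shank3 shNT replicates 1 and 2 lie among the shRNA samples.

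Tanc1 showed the larger change of the Tanc pair. It lies on chromosome 2 from 59450099 to 59684206 (ENSMUSG00000035168) and has 14.6 kb of exons. With shNT, replicates 1 to 5 had 60.2, 46.7, 43.4, 24.2 and 27.6 CPM, and with shRNA, replicates 1 to 4 had 84.0, 77.3, 90.8 and 113 CPM. Values below are given in this order. The groups did not overlap (shRNA lay wholly above shNT in 8.97% of all genes tested and wholly below in 6.68%), and shRNA replicate 4 was the highest sample. Of genes with at least 4 kb of exons, 15.05% had shRNA wholly above shNT. Mean levels of 40.4 ± 14.7 CPM in controls (SD, n = 5) and 91.3 ± 15.5 CPM with shRNA (SD, n = 4) differed 2.26-fold (log2 fold change 1.17, standard error 0.25, FDR = 0.0439 by edgeR's quasi-likelihood test). This fold change lay above those of 92.5% of all genes tested, and exact permutation, two-sided, gave p = 0.0159.

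Tanc2, on chromosome 11 from 105451300 to 105790618 (ENSMUSG00000053580), has the longest exons of the 9 genes, at 16.5 kb. It measured 88.9, 69.4, 69.4, 50.5 and 55.3 CPM in the shNT samples and 109.6, 107, 123 and 108 CPM in the shRNA samples. The groups again did not overlap, and the 4 shRNA samples lay closer together on the log2 scale than for any other scaffold gene. Tanc2 averaged 66.7 ± 15.0 CPM in controls (SD, n = 5) and 112 ± 7.37 CPM with shRNA (SD, n = 4), a 1.68-fold difference (log2 fold change 0.75, standard error 0.17, FDR = 0.0497 by edgeR), and exact permutation gave p = 0.0159. Both calls rested on several samples, and the lowest FDR of all genes tested was 0.0403. Without shNT replicate 3, 4 or 5, or without shRNA replicate 1 or 3, 0 genes of any kind were called. The FDR of Tanc1 (edgeR) rose to 0.0744 without shNT replicate 3, 0.155 without shNT replicate 4, 0.169 without shNT replicate 5, 0.0860 without shRNA replicate 1, 0.121 without shRNA replicate 3 and 0.0826 without shRNA replicate 4. That of Tanc2 (edgeR) was 0.0749, 0.155, 0.169, 0.0860, 0.121 and 0.0694 without these samples, 0.0513 without shNT replicate 2 and 0.0531 without shRNA replicate 2. Their log2 fold changes stayed between 0.95 and 1.36 for Tanc1 and between 0.59 and 0.87 for Tanc2 when single samples were omitted. The sample names fall into 2 sets, of which the larger holds 3 samples of each group and the smaller 2 shNT samples and 1 shRNA sample. Within the larger set the log2 fold change was 0.71 for Tanc1 (FDR = 0.242, edgeR) and 0.54 for Tanc2 (FDR = 0.332, edgeR), and 0 genes of any kind were called.

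The Shank genes, which encode the deep scaffold layer, had the widest spread within groups on the log2 scale, and none was called by edgeR's quasi-likelihood test. With limma voom and quality weights, by which samples count unequally (weighted limma voom), all 3 were called. That setting called 15.3% of all genes higher. Its log2 fold changes were 0.77 for Shank1 (FDR = 0.0442), 2.44 for Shank2 (FDR = 0.00177) and 1.36 for Shank3 (FDR = 0.00391). Shank2, on chromosome 7 from 151187833 to 151610399 (ENSMUSG00000037541), had the largest fold change of the 9. It was measured at 157, 185, 37.1, 28.045 and 44.4 CPM in controls and at 383, 149, 299.8 and 107.5 CPM with Ablim3 shRNA. Replicates 1 and 2 of the shNT group lay above shRNA replicates 2 and 4, while shNT replicates 3 to 5 lay below every shRNA sample. The log2 fold change was 1.38 with a 95% interval from 0.09 to 2.66 (FDR = 0.126, edgeR). Shank2 averaged 90.4 ± 74.7 CPM (SD, n = 5) in controls and 235 ± 129 CPM with shRNA (SD, n = 4).

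Shank3 lies on chromosome 15 from 89330054 to 89390692 (ENSMUSG00000022623). It was measured at 55.9, 74.7, 23.6, 20.2 and 29.1 CPM with shNT and at 95.4, 49.1, 81.9 and 47.3 CPM with shRNA, which put the samples in the same order as for Shank2. Its log2 fold change was 0.75 (interval -0.09 to 1.59, FDR = 0.188, edgeR). Exons of Gm15609, on the other strand, overlap 3.05% of the Shank3 exons, and counting without strand could mix their reads. Shank1, on chromosome 7 from 51565623 to 51613721 (ENSMUSG00000038738), had 261, 517, 112, 141 and 217 CPM with shNT and 476, 197, 319 and 386 CPM with shRNA. The highest Shank1 value of all 9 samples was that of a control, shNT replicate 2. The log2 fold change of Shank1 was 0.47 (interval -0.43 to 1.37, FDR = 0.426, edgeR), and it was 0.92 without shNT replicate 2 and 0.18 without shRNA replicate 1.

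Among Dlg2, Dlg3 and Dlg4, whose products hold receptors at the membrane, Dlg2 had the largest fold change. Dlg2 spans 1945 kb of chromosome 7 from 97650473 to 99595513 (ENSMUSG00000052572). It measured 99.4, 39.9, 86.5, 51.7 and 44.1 CPM with shNT and 92.5, 119.9, 132 and 99.5 CPM with shRNA. Only shNT replicate 1 lay within the range of the shRNA samples. Averages of 64.3 ± 26.9 CPM (SD, n = 5) in controls and 111 ± 18.2 CPM with shRNA (SD, n = 4) gave a 1.72-fold difference that did not pass (log2 fold change 0.79, standard error 0.27, FDR = 0.0818, edgeR; exact permutation p = 0.0476). It passed with edgeR's likelihood ratio test (FDR = 0.0362), which called 11.2% of all genes higher, with DESeq2 (FDR = 0.0378, 10.2% of all genes) and with weighted limma voom (FDR = 0.00224, 15.3%), and also by edgeR's quasi-likelihood test without shNT replicate 1 (FDR = 0.0437).

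Dlg3, on chromosome X from 97963061 to 98013749 (ENSMUSG00000000881), had 204, 92.3, 229.5, 159 and 125 CPM with shNT and 161, 247, 234 and 129 CPM with shRNA. Dlg4, on chromosome 11 from 69830587 to 69859034 (ENSMUSG00000020886), had 31.2, 34.7, 23.5, 15.8 and 29.3 CPM with shNT and 36.4, 25.5, 32.7 and 32.7 CPM with shRNA. The groups overlapped in both genes. Their log2 fold changes were 0.25 (interval -0.36 to 0.86, FDR = 0.532, edgeR) for Dlg3 and 0.24 (interval -0.23 to 0.71, FDR = 0.430, edgeR) for Dlg4, so that a 1.5-fold rise lies inside both intervals.

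Homer1, the coupler to metabotropic receptors on chromosome 13 from 94073712 to 94174917 (ENSMUSG00000007617), measured 91.7, 54.3, 83.3, 64.7 and 61.8 CPM with shNT and 84.4, 98.3, 104 and 90.3 CPM with shRNA. Of the controls, shNT replicate 1 alone reached the range of the shRNA samples. Homer1 averaged 71.2 ± 15.7 CPM in controls (SD, n = 5) and 94.3 ± 8.70 CPM with shRNA (SD, n = 4), 1.32-fold apart (log2 fold change 0.41, interval 0.04 to 0.77, FDR = 0.119, edgeR; exact permutation p = 0.0635).

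**Figure D2:**
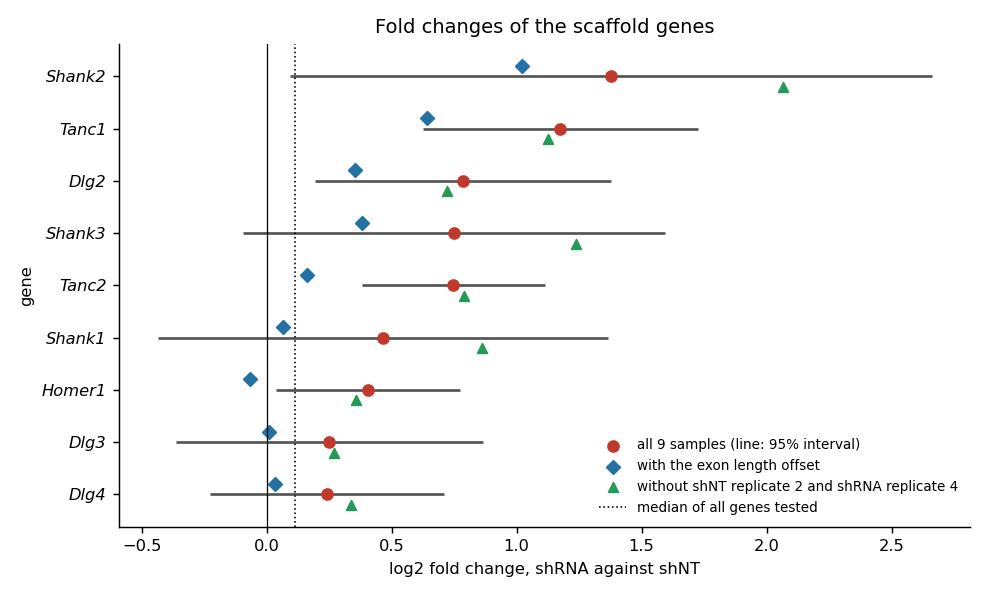
Log2 fold change of each scaffold gene, shRNA against shNT (horizontal axis), with its 95% interval from edgeR's quasi-likelihood fit, the value with an offset for exon length in each sample and the value without shNT replicate 2 and shRNA replicate 4. All 9 lie above 0 in the fit of 9 samples, and with the offset Tanc2 falls from 0.75 to 0.16 and Homer1 to -0.07.

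Compared per kilobase of exon, Shank1 and Dlg3 were the most abundant scaffold transcripts in the shNT samples, with 30.1 ± 19.4 and 27.7 ± 9.57 CPM per kb (SD, n = 5). Shank2 followed with 8.47 ± 6.99 CPM per kb, then Homer1 (6.28 ± 1.38), Dlg2 (5.85 ± 2.44), Dlg4 (5.78 ± 1.59), Shank3 (4.58 ± 2.66), Tanc2 (4.04 ± 0.910) and Tanc1 (2.77 ± 1.01). Neighbours in this order differed by more than the larger of their SDs only between Dlg3 and Shank2, with Dlg3 higher in 4 of 5 samples, and between Tanc2 and Tanc1, with Tanc2 higher in 5 of 5. In the shRNA samples the order ran from Shank1 (41.6 ± 14.2 CPM per kb, SD, n = 4) and Dlg3 (33.002 ± 9.70) through Shank2 (21.99 ± 12.04), Dlg2 (10.1 ± 1.65), Homer1 (8.32 ± 0.768), Shank3 (7.69 ± 2.70), Dlg4 (6.83 ± 0.979) and Tanc2 (6.79 ± 0.447) to Tanc1 (6.27 ± 1.07). There the neighbours that differed by more than the larger SD were Dlg2 and Homer1.

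Whether members of a family changed by different amounts was tested with the log2 ratio of their counts within each sample, which does not depend on the scaling between libraries. The Tanc1/Tanc2 ratio was -0.56, -0.57, -0.68, -1.06 and -1.003 in the shNT samples and -0.38, -0.47, -0.44 and 0.06 in the shRNA samples. Every shRNA ratio lay above every shNT ratio, and shRNA replicate 4 stood apart as the only sample with more reads on Tanc1 than on Tanc2. The mean difference was 0.47 (exact permutation p = 0.0159, adjusted p = 0.0833 over 7 ratios), and 0.34 without shRNA replicate 4.

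The log2 ratio of Dlg2 to Dlg3 was -1.03, -1.21, -1.41, -1.63 and -1.51 with shNT and -0.80, -1.04, -0.83 and -0.38 with shRNA. It was higher by 0.59 on average in the shRNA samples (exact permutation p = 0.0238, adjusted p = 0.0833), with only shNT replicate 1 inside the shRNA range. The ratio of Shank2 to Shank3 was higher by 0.76 in the shRNA samples (p = 0.0556, adjusted p = 0.130, exact permutation), and those of Shank1 to Shank2 (difference -1.02, exact p = 0.0873), Shank1 to Shank3 (-0.26, exact p = 0.357), Dlg2 to Dlg4 (0.59, exact p = 0.246) and Dlg3 to Dlg4 (exact p = 0.984) overlapped between the groups. No ratio had an adjusted p under 0.05. These ratios are not adjusted for the trend with exon length described below. With an offset for it, the difference was 0.31 for Dlg2 to Dlg4, 0.51 for Tanc1 to Tanc2 and -0.94 for Shank1 to Shank2. For Dlg2 to Dlg3, 4 settings that include this offset gave 0.33 (larger name set) to 0.59 (pseudocount of 5).

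The scaffold genes are long, and fold changes rose with exon length over all genes tested. Across 15050 genes, which are not independent replicates, Spearman's r between the log2 fold change and exon length was 0.406. In 10 equal bins by exon length the median log2 fold change went from -0.41 in the shortest bin to 0.50 in the longest, whose 1505 genes have at least 8.12 kb of exons. That bin holds 7 of the 9 scaffold genes, all but Dlg3 and Dlg4. Its quartiles were 0.18 and 0.95, and Shank2 (1.38) and Tanc1 (1.17) were above this range, while Shank1, Shank3, Dlg2, Tanc2 and Homer1 were inside it. With an offset for the trend with exon length in each sample, 0 of the 9 and 0 of all genes tested were called. The log2 fold change was then 0.64 for Tanc1 (FDR = 0.0911, edgeR), 0.16 for Tanc2 (FDR = 0.416, edgeR) and 1.02 for Shank2 (FDR = 0.238, edgeR), and the median of the 9 was 0.16, beside -0.002 for all genes tested.

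**Figure D3:**
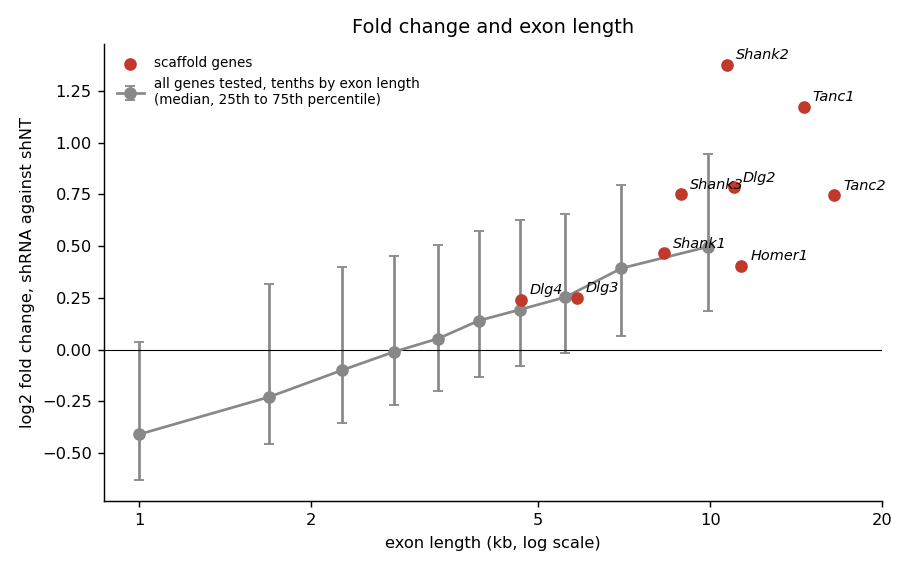
Log2 fold change, shRNA against shNT, by exon length (log scale, kb). Grey points are the medians of 10 equal bins of all genes tested with bars from the 25th to the 75th percentile, and red points are the scaffold genes. Shank2 and Tanc1 lie above the bar of the longest bin.

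Across the 9 samples the scaffold genes fell into patterns that kept the Shank genes together and the Tanc genes together. Dlg4 went apart from Dlg2 and Dlg3. Dlg2 and Homer1 followed each other most closely of the 36 pairs (Pearson's r = 0.995, exact permutation p = 5.5e-06, adjusted p = 9.9e-05; Spearman's r = 0.983, p = 5.0e-05, adjusted p = 8.9e-04), with r = 0.996 without the 2 samples most extreme in Dlg2 and 0.992 after each group's mean was subtracted. Shank2 and Shank3 had r = 0.989 (exact permutation p = 2.8e-06, adjusted p = 9.9e-05; Spearman's r = 1.00), r = 0.976 without the 2 most extreme samples and 0.989 after group means. For Tanc1 and Tanc2 r was 0.972 (exact permutation p = 8.0e-05, adjusted p = 9.6e-04; Spearman's r = 0.950, p = 3.5e-04), 0.925 without the 2 most extreme samples and 0.899 after group means. In the larger name set, with 6 samples, r was 0.998, 0.982 and 0.994 for these pairs. The median r of the 36 pairs over the 9 samples was 0.684.

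For Dlg4, r with Shank1 was 0.834 (exact permutation p = 0.00186, adjusted p = 0.0134; Spearman's r = 0.967, p = 1.7e-04), 0.887 without the 2 samples most extreme in Shank1 and 0.962 in the larger name set. With Shank3 it was 0.837 and with Shank2 0.789 (exact permutation p = 0.00167 and 0.00522, adjusted p = 0.0134 and 0.0235; Spearman's r = 0.833 for both, p = 0.00827). These were 0.651 and 0.510 without the 2 samples most extreme in the Shank gene, and 0.925 and 0.8555 in the larger name set. With Dlg2, r of Dlg4 was 0.212 (exact permutation p = 0.619, adjusted p = 0.719; Spearman's r = 0.0667, p = 0.880). It was 0.766 without the 2 samples most extreme in Dlg2, -0.112 after group means and -0.305 in the larger name set. The samples left out differ from pair to pair, so these values do not rank the pairs. With Dlg3 it was -0.261 (exact permutation p = 0.515, adjusted p = 0.618; Spearman's r = -0.333, p = 0.385). Shank1 and Dlg3 had the lowest r of all pairs, -0.529 (exact permutation p = 0.143, adjusted p = 0.234; Spearman's r = -0.450, p = 0.230), and -0.125 without the 2 samples most extreme in Shank1. These points share libraries, and the relations describe 9 samples only. Correlations between pairs of other genes were not computed, so the p-values do not show relations particular to these genes.

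**Figure D4:**
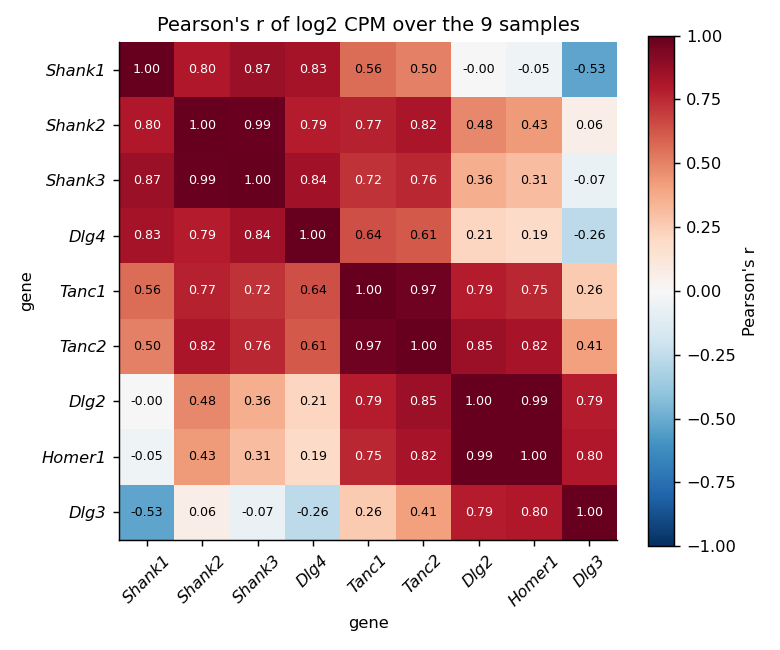
Pearson's r of log2 CPM over the 9 samples for each pair of scaffold genes (both axes; color from -1 to 1). The Shank genes and Dlg4 form one block, Dlg2, Homer1 and Dlg3 another, and Tanc1 and Tanc2 have r of at least 0.50 with every gene except Dlg3.

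The share of reads outside annotated exons differed between samples, and its relation to each of the 9 genes was computed. It was 11.0%, 18.6%, 9.76%, 9.91% and 11.3% in shNT replicates 1 to 5 and 19.8%, 12.5%, 12.4% and 27.2% in shRNA replicates 1 to 4. Shank1 was higher where this share was higher (r = 0.740, exact permutation p = 0.0207, adjusted p = 0.186 over 9 genes; Spearman's r = 0.817, p = 0.0108, adjusted p = 0.0485; r = 0.863 without the 2 most extreme samples and 0.863 in the larger name set). Dlg4 had Spearman's r = 0.817 (exact permutation p = 0.0108, adjusted p = 0.0485) and r = 0.570 (p = 0.105, adjusted p = 0.315; r = 0.604 without the 2 most extreme samples). After group means were subtracted, r was 0.673 for Shank1 and 0.464 for Dlg4. Tanc1 had r = 0.620 (exact permutation p = 0.0712, adjusted p = 0.315; Spearman's r = 0.733, p = 0.0311, adjusted p = 0.0934), 0.239 without the 2 most extreme samples and 0.390 after group means. Dlg3 had r = -0.527 (exact permutation p = 0.144, adjusted p = 0.325; Spearman's r = -0.267, p = 0.493), -0.633 without the 2 most extreme samples and -0.841 after group means. With the share as a covariate the log2 fold change was 0.02 for Shank1 and 0.70 for Dlg3. It was 1.00 for Tanc1 (FDR = 0.0972, edgeR) and 0.75 for Tanc2 (FDR = 0.0870, edgeR). In that fit 0 of the 9 and 0 of all genes tested were called.

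Partners of the scaffold were described by lists of genes, by their counts and medians. The Dlg and Dlgap relatives had 2 of 9 genes upregulated, Dlg5 (log2 fold change 1.62, standard error 0.27, FDR = 0.0403, edgeR) and Dlg1, the gene of SAP97 (0.98, standard error 0.20, FDR = 0.0414, edgeR), with a median of 0.46 and 9 of 9 positive. Dlg1 had 21.3 ± 5.22 CPM in controls (SD, n = 5) and 42.1 ± 8.37 CPM with shRNA (SD, n = 4), and Dlg5 had 20.6 ± 6.28 and 63.4 ± 21.5 CPM. Cask, a membrane-associated guanylate kinase, was the lowest of that list with 0.10 (FDR = 0.60, edgeR).

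Among 13 regulators and adaptors of the postsynaptic density 0 were called, 12 had a positive log2 fold change (57.9% of all genes tested did) and the median was 0.78. Camk2a, in this list, is also 1 of the pyramidal neuron markers below. It had 543 ± 232 CPM in controls (SD, n = 5) and 917 ± 124 CPM with shRNA (SD, n = 4). Kalrn, which encodes the spine protein kalirin, had the highest value (2.09, FDR = 0.0502, edgeR) and Begain the lowest (-0.06, FDR = 0.740, edgeR). Of 8 actin-linked proteins 1 was upregulated, Ppp1r9b, which encodes spinophilin, with 211 ± 132 CPM in controls (SD, n = 5) and 1600 ± 1052 CPM with shRNA (SD, n = 4; log2 fold change 2.92, standard error 0.56, FDR = 0.0403, edgeR), although its groups overlapped. The median of that list was 0.94 and the lowest was Cttn, the gene of cortactin, with -0.002 (FDR = 0.995, edgeR). Homer3 had 0.75 (FDR = 0.0717, edgeR) and Homer2 0.37 (FDR = 0.173, edgeR).

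The anchored glutamate receptors had 1 of 9 genes upregulated, the AMPA receptor subunit Gria2, with 357 ± 72.1 CPM in controls (SD, n = 5) and 690.3 ± 164 CPM with shRNA (SD, n = 4; log2 fold change 0.95, FDR = 0.0481, edgeR). Their median was 0.21, with the NMDA receptor subunit Grin2a highest (1.29, FDR = 0.0621, edgeR) and the AMPA receptor subunit Gria4 lowest (-0.21, FDR = 0.581, edgeR). The PDZ adaptors of AMPA receptors had a median of -0.09, with 0 of 5 called and 2 of 5 positive, from Pick1 (-0.15, FDR = 0.417, edgeR) to Magi3 (0.67, FDR = 0.0591, edgeR). The inhibitory postsynaptic scaffolds had a median of 0.04, with 0 of 8 called and 6 of 8 positive. Among these the gephyrin gene Gphn had 0.03 (FDR = 0.901, edgeR), Dmd, the gene of dystrophin, was highest (1.41, FDR = 0.0686, edgeR) and Nlgn2, an adhesion protein of inhibitory synapses, was lowest (-0.43, FDR = 0.128, edgeR). Magi2 and Insyn1 were left out because their names did not match a single identifier.

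**Figure D5:**
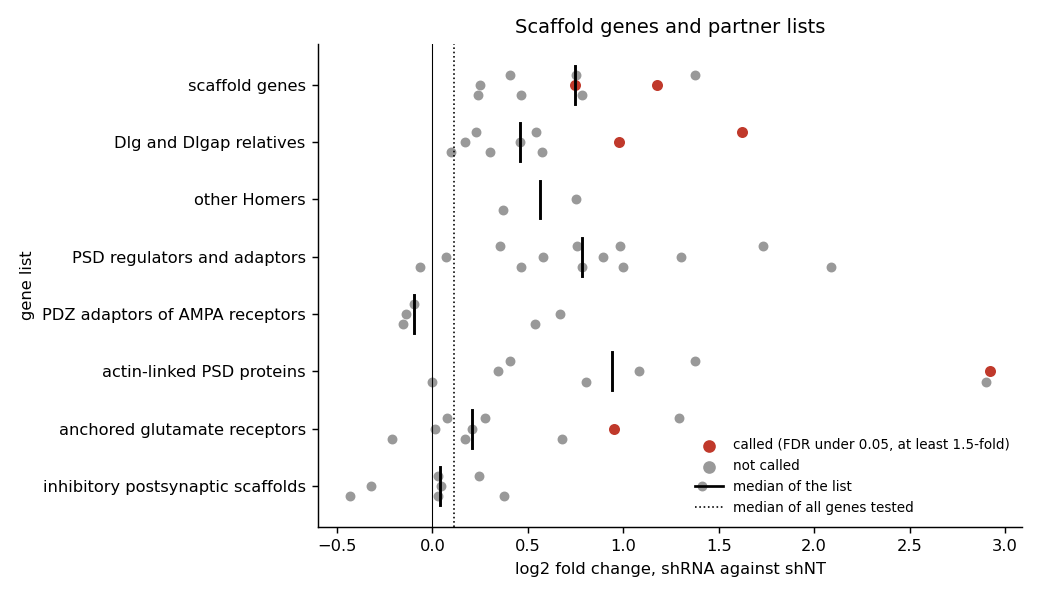
Log2 fold change, shRNA against shNT (horizontal axis), of the scaffold genes and of 7 lists of partner genes. Each point is a gene, red where called (FDR under 0.05 and at least 1.5-fold, edgeR), and black bars are list medians, from -0.09 for the PDZ adaptors of AMPA receptors to 0.94 for the actin-linked proteins.

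The 5 genes whose levels most resembled the mean standardized level of the 9 scaffold genes over the 9 samples were Gse1 (r = 0.996), Ston2 (r = 0.995), Jph4 (r = 0.994), Tcf20 (r = 0.9905) and Spnb3 (r = 0.990), out of 9486 genes averaging at least 10 CPM. Spnb3 is an older symbol of the gene for a neuronal beta spectrin. None of the 5 was called, with FDR values from 0.0591 for Tcf20 to 0.0933 for Jph4 (edgeR quasi-likelihood test).

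Of 64 markers in 9 lists of cell types, 4 were upregulated and 0 downregulated (edgeR), beside 1.74% and 0.0133% of all genes tested. The 4 were Grik4 of CA3 and CA2 pyramidal neurons, Cnr1 of other interneurons, and Pdgfra and Olig2 of oligodendrocyte precursors. The counts of positive signs and the sums below are descriptions, and the summed levels of the groups did not overlap for oligodendrocyte precursors, for pyramidal neurons and for DG granule cells, and overlapped for the others. Counts on genes ran from 18281719 to 34578837 per sample. Ablim3 had 16.9 ± 5.16 CPM in controls (SD, n = 5) and 18.5 ± 3.42 CPM with shRNA (SD, n = 4), which is no check of the knockdown, since virus went into DG and the RNA came from CA3/CA2. Summed over 12 markers, PV IN transcripts had 9629 to 14715 CPM in the shNT samples and 4753 to 11293 CPM in the shRNA samples, and 0 of 12 had a positive log2 fold change. Pvalb itself had 998 ± 287 CPM in controls (SD, n = 5) and 526 ± 163 CPM with shRNA (SD, n = 4). Its log2 fold change was -0.92 (FDR = 0.0678, edgeR), and only 0.312% of all genes tested had a lower one. Pvalb has 1.04 kb of exons, and the shortest bin by exon length had a median of -0.41. The 8 markers of CA3 and CA2 pyramidal neurons, cells that also express the scaffold genes, summed to 575 to 1429 CPM with shNT and 1490 to 1873 CPM with shRNA, with 7 of 8 positive. Astrocyte markers summed to 1027 to 1449 CPM and 1348 to 5251 CPM (8 of 8 positive), and shRNA replicate 4, the highest sample in Tanc1, held the highest sum. Oligodendrocyte markers summed to 759 to 2373 CPM and 1442 to 3019 CPM (6 of 6 positive) and DG granule cell markers to 63.9 to 117 CPM and 128 to 182 CPM (6 of 6 positive). Oligodendrocyte precursor markers summed to 35.2 to 63.6 CPM and 68.9 to 99.1 CPM (4 of 4 positive), microglial markers to 29.5 to 71.3 CPM and 62.6 to 74.4 CPM (4 of 6), endothelial markers to 116 to 285 CPM and 86.8 to 701 CPM (6 of 6), and markers of other interneurons to 568 to 937 CPM and 369 to 746 CPM (4 of 8). No marker was at 0 in every sample. In shNT replicate 2 and shRNA replicate 4 the share of reads outside exons was the highest of their groups (18.6% and 27.2%). Without these samples, Tanc1 had a log2 fold change of 1.13 (FDR = 0.0412, edgeR) and Tanc2 of 0.79 (FDR = 0.0387, edgeR). No scaffold gene then had an exact permutation p under 0.05, and neither Tanc gene was called by edgeR without shRNA replicate 4 alone. The part of other cells in the levels of the scaffold genes was not tested.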

How the data were processed

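Ribosome-associated RNA of CA3/CA2 was sequenced in 5 shNT and 4 shRNA samples, each a pool of mice, so p-values measure the spread between pools. The authors mapped reads of 50 bases with STAR to the transcriptome of mm9 and counted them per gene, unstranded, with HTSeq 0.6.0 (names and version also stand in the submitters' processing notes). The deposited values are raw counts. Reads outside exons (9.76% to 27.2% of uniquely aligned reads), ambiguous reads (1.36% to 1.78%) and alignments at more than 1 place (8.24% to 14.4%) entered neither library sizes nor tests. GENCODE's annotation of that build named 37205 of 37620 identifiers, and exon length is that of a gene's merged exons.

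R 4.3.3 was used, and edgeR (4.0.16), limma (3.58.1) and DESeq2 (1.42.0). Limma voom was run with sample quality weights throughout. The filter kept the 15069 genes that reached 1 CPM in 1 sample or more; the methods' wording of this limit is incomplete. After TMM normalization, edgeR's quasi-likelihood test compared the groups, adjusted by Benjamini-Hochberg over all genes tested (FDR), and a call needed an FDR below 0.05 with a 1.5-fold change or more. Log2 levels had a prior count of 2, and ratios of counts a pseudocount of 0.5. Exact permutation tests were two-sided and enumerated every assignment of the samples. Scripts were tested on simulated counts. The scaffold genes, partner lists and marker lists were chosen with earlier results of these data known. Named were all 9 scaffold genes, in each partner list the called genes and those with the highest and lowest log2 fold change, the 5 genes of most similar pattern, and Pvalb as a check of the cell type. Gphn, Camk2a and the called markers were named after their values were seen. Alternatives were other normalizations, filters, tests, prior counts and pseudocounts, blocks for replicate number or set of sample names, offsets for exon or gene length, a covariate for reads outside exons, and samples left out.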

Additional observations from a re-analysis of the deposited data

Results flagged for a closer look

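The log2 ratio of Tanc1 to Tanc2 counts in shRNA replicate 4 lay far from the other shRNA samples, at 0.0623 against -0.4696 to -0.3835. Its gap to the nearest sample was 0.838 of the range of the group, above Dixon's 95% limit for 4 samples. It was the only such value in 32 groups of values examined, where chance gives about 1.6, and its cause was not tested.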

How the results depend on the processing

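The count of called scaffold genes, 2 by edgeR's quasi-likelihood test, was 0 with library size alone, 1 with DESeq2's size factors, 0 with upper-quartile scaling, 6 with weighted limma voom (all 3 Shank genes, Dlg2, Tanc1 and Tanc2), 3 with DESeq2 and with edgeR's likelihood ratio and exact tests, and 0 in the larger name set, with the exon or gene length offset, or with the share of reads outside exons as covariate. In the partner lists, 4 genes were called, against 0 with library size alone, upper quartile, either length offset, that covariate or the larger name set, 12 without the filter, 19 with the likelihood ratio test, the exact test or DESeq2, 28 with weighted limma voom, and 11 with the name set as a block or without shNT replicate 2 and shRNA replicate 4. Over all genes, 262 were higher, and these settings gave 0 to 2301. Counts over all genes were 501 without the filter and 376 with the name set as a block. They were 1688 with the likelihood ratio test, 1659 with the exact test, 1532 with DESeq2 and 2301 with weighted limma voom. The cause of these shifts was not tested.

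With 1 sample left out, 0 to 3 scaffold genes and 0 to 19 partner genes were called, and the scaffold genes' median log2 fold change ran from 0.48 (without shRNA replicate 1) to 0.87 (without shNT replicate 1). No gene of any kind was called when shNT replicate 3, 4 or 5, or when shRNA replicate 1 or 3, was omitted, no scaffold gene without shRNA replicate 4, and 1 (Tanc1) without shNT replicate 2 or shRNA replicate 2. Exact permutation p was under 0.05 for 3 scaffold genes and for 1 to 4 with 1 sample left out, 1 with the exon length offset, 0 without shNT replicate 2 and shRNA replicate 4, and 0 in the larger name set, where 3 against 3 cannot go below 0.10. The same held for 2 paralog ratios, 1 to 2 with 1 sample left out, and 0 without both samples or in the larger name set.

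With the exon length offset the scaffold genes' median was 0.16, that of all genes -0.001727 (from 0.11) and Homer1 -0.067. The difference in the Dlg3/Dlg4 ratio, -0.004, became 0.288 in the larger name set and ran from -0.292 (without shNT replicate 2) to 0.190 (without shRNA replicate 4).

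With the replicate number as a block, 0 scaffold genes (Tanc1 FDR 0.235, Tanc2 FDR 0.296, edgeR), 3 partner genes and 29 genes in all were higher. Adding the exon length offset to the block gave 0 scaffold genes, 0 partner genes, Dlg3 at -0.043, Homer1 at -0.049 and a median of all genes of -0.01524. Deviations from the group means of samples with the same number correlated at -0.267, -0.641, 0.486 and -0.181, and only shRNA replicate 3 correlated best with the control of its own number, so the numbers were not taken to pair samples.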
